A study of Mus musculus with 3 samples.

Results

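The 8 genes described here belong to, or regulate, the pathway that loads peptides onto major histocompatibility complex (MHC) class I molecules: Tap1, Tap2, Tapbp, Tapbpl, Erap1, Calr, Pdia3 and Nlrc5. They were picked by gene symbol, and each symbol matched 1 of the 55536 annotated genes in the deposited gene table. All values come from mouse bone-marrow-derived macrophages of strain C57BL/6J, primary cells grown out of bone marrow in culture. The cells had received Lipid A, the part of bacterial lipopolysaccharide that Toll-like receptor 4 senses, at 100 ng/ml for 12 h, followed by 12 h without it and a second exposure to 100 ng/ml for 30 min. RNA of the cytosolic fraction was depleted of ribosomal RNA and sequenced as total RNA. The 3 libraries are the biological replicates of this 1 group, and neither the sex nor the age of the animals was recorded. All 3 carry the same donor entry, so the spread between them may be technical. Cells with other treatments and the nuclear fraction were not analysed here, so no value below says what Lipid A changed.

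Class I molecules sit on nearly all nucleated cells and show short peptides to CD8+ T cells. Proteasomes cut the peptides in the cytosol, the TAP transporter pumps them into the endoplasmic reticulum (ER), and an ER aminopeptidase trims them. In the ER a peptide loading complex of TAP, tapasin, calreticulin and the disulphide isomerase ERp57 holds an empty class I molecule until a fitting peptide binds. Macrophages use the pathway to show peptides of intracellular microbes, and interferons are known to induce many of its genes.

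Annotated genes received 28759407, 54709008 and 49878183 expected counts in replicates 1, 2 and 3. Levels are given as TPM, the share of a library's transcripts after division by length, in the form mean ± SD over n = 3 libraries. The cells matched their label. All 7 macrophage markers examined were detected, meaning at least 1 TPM in every library, with sums of 4994, 4679 and 4972 TPM in replicates 1, 2 and 3. None of the markers of T cells (3 genes), B cells (3), neutrophils (3), dendritic cells (4) or fibroblasts (3) was detected. The sum of any of these lists was at most 0.25 TPM in a library, and the neutrophil genes Ly6g and Retnlg had a count of 0 in all 3, which allows up to 3 counts in each. In RNA of a whole culture, fewer cells that use a gene and less RNA per cell cannot be told apart.

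All 8 genes were detected, against 41.2% of the 22015 nuclear protein-coding genes. Together they held 841, 710.3 and 877 TPM in replicates 1, 2 and 3. Tapbp alone took 39.5% ± 0.675 of that sum and Calr 26.3% ± 1.97. The median of the 8 mean levels was 61.7 TPM, and that of all detected nuclear protein-coding genes was 8.30 TPM. Tapbp ranked 84 among these 9068 detected genes and Calr 166, whereas Tapbpl, the lowest of the 8, ranked 2785. Every level was lower in the second deposited transcript table, by 1.72 times for Erap1 to 2.77 times for Nlrc5, so TPM values below are those of the gene table unless another table is named. The order of the libraries also differed in that second table, where each of the 8 genes had its lowest TPM in replicate 3. Statements below on the library with the highest or lowest TPM therefore hold for the gene table only.

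**Figure D1:**
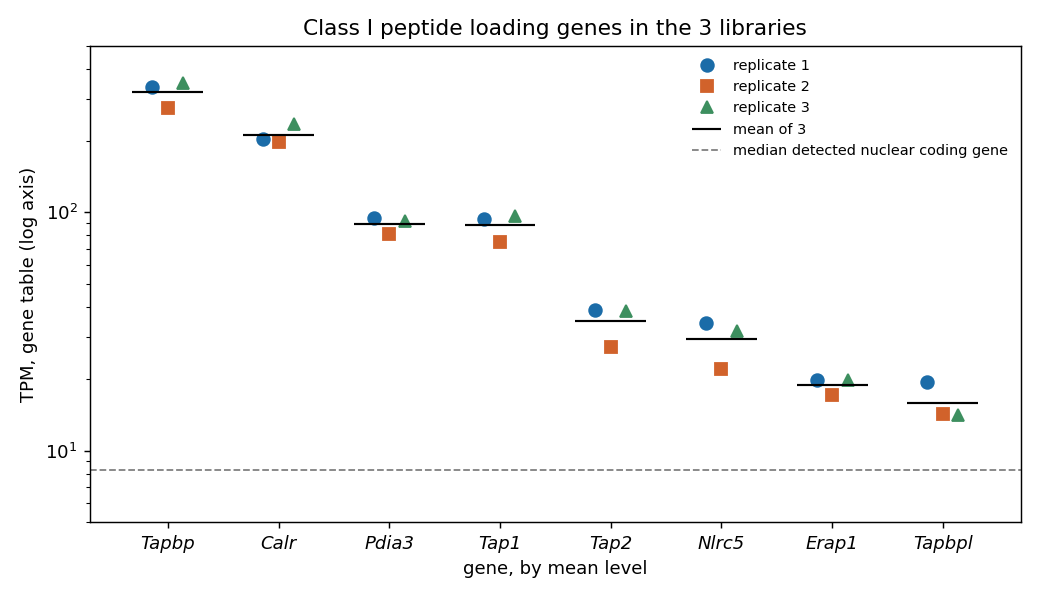
TPM of each gene in the deposited gene table (log axis) in replicate 1 (circles), replicate 2 (squares) and replicate 3 (triangles), ordered by mean level, with black bars at the mean of 3 libraries. The genes run from Tapbp at 320.3 TPM to Tapbpl at 15.9 TPM, and each mean lies above the dashed line at 8.30 TPM, the median detected nuclear protein-coding gene.

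Tap1 and Tap2 encode the paired subunits of the transporter associated with antigen processing, which work as a heterodimer and use ATP to carry peptides into the ER. Tap1 (ENSMUSG00000037321.17, mm10 chromosome 17, 34187553 to 34197225, plus strand) had 94.0, 74.9 and 96.7 TPM in replicates 1, 2 and 3. Tap2 (ENSMUSG00000024339.12, chromosome 17, 34203527 to 34216321, plus strand) had 39.0, 27.1 and 38.5 TPM. In the gene table both were lowest in replicate 2, while their values in replicates 1 and 3 lay close together. The second transcript table gave Tap1 41.0, 34.7 and 30.2 TPM and Tap2 17.5, 13.4 and 12.3 TPM, both lowest in replicate 3. Tap1 stood above Tap2 in all 3 libraries, with TPM ratios of 2.41, 2.76 and 2.51. The difference on the log2(TPM + 1) scale was 1.33 ± 0.09, or 2.51-fold, more than 3 SD from 0. A two-sided exact sign-flip test over 3 libraries cannot go below p = 0.25, which is the value it gave for this difference.

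Tap2 was the only one of the 8 genes whose most abundant transcript was not annotated as protein-coding. Tap2-202, annotated as a retained intron, took 74.9%, 79.6% and 80.3% of the gene's TPM in replicates 1, 2 and 3. The protein-coding Tap2-201 took 21.4% ± 3.23. In the second deposited transcript table, made with another method, Tap2-202 held 75.1% ± 2.42 of the TPM, so both quantifications gave it the lead in every library. Protein-coding transcripts alone gave Tap1 92.5, 69.9 and 94.4 TPM, against 9.81, 5.52 and 7.60 TPM for Tap2.

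Tap2-202 keeps a single intron, the one between exons 6 and 7 of Tap2-201 (chromosome 17, 34212068 to 34212229), and splices all others. The stretch is shown because it marks the leading transcript. The retained 162 bases are in capitals, with 30 exon bases in lower case on each side, and the spliced junction of Tap2-201 follows.
Tap2-202: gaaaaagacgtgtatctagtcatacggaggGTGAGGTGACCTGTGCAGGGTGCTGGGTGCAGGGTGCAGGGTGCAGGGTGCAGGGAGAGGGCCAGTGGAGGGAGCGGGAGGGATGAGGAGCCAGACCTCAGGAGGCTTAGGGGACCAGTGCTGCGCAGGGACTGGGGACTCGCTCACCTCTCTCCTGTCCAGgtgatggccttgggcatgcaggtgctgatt
Tap2-201: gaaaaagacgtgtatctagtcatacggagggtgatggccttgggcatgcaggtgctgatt
The intron begins with GT and ends with AG, and its GC content is 67.3%. Its length is a multiple of 3, and the reading frame of Tap2-201 continued into it meets a stop codon at codon 3. Tap2-202 also starts 1040 bases later than Tap2-201, in a first exon of 57 bases in place of 1097. The deposited tables hold 1 value per transcript, so which of these segments set the split between the transcripts was not tested. Gm15821, annotated as a macro lncRNA on the other strand (chromosome 17, 34211312 to 34214459), spans the intron and had 0.04, 0.04 and 0.14 TPM. The antisense gene Gm20496 overlaps Tap2 by 1923 bases and had a count of 0 in all 3 libraries. Whether counting used strand is not given in the sources used here, so reads of overlapping genes on opposite strands may not have been told apart.

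Most Tap1 RNA was assigned to the protein-coding transcript Tap1-206, with 71.0%, 63.6% and 67.0% of TPM in replicates 1, 2 and 3. Tap1-201, also protein-coding, held 27.2% ± 0.882. It lacks 84 bases within exon 6 of Tap1-206 (chromosome 17, 34192858 to 34192941), so its coding sequence has 2088 bases in place of 2172. Those bases are shown in capitals, with 30 bases of the spliced transcript on each side, since they are the coding difference between these transcripts.
Tap1-206: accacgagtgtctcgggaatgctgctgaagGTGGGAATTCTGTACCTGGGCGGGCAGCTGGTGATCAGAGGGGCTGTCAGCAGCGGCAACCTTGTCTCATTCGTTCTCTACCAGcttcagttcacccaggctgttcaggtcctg
The stretch starts with GT and ends with AG, as introns do, and read in frame it holds no stop codon. In the second transcript table Tap1-201 held 6.63% ± 1.12 and Tap1-206 89.3% ± 1.99. The first exon also differs, since Tap1-206 starts 249 bases before Tap1-201, so the split does not measure how often the 84 bases were skipped.

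Tap1 overlaps Psmb9, a catalytic subunit of the immunoproteasome that runs the other way, by 212 bases at their starts. Psmb9 had 70.5, 64.5 and 71.0 TPM in replicates 1, 2 and 3, likewise lowest in replicate 2. Psmb8, another immunoproteasome subunit, lies between Tap1 and Tap2 (chromosome 17, 34197721 to 34201454) and stood at 206.7 ± 15.8 TPM.

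**Figure D2:**
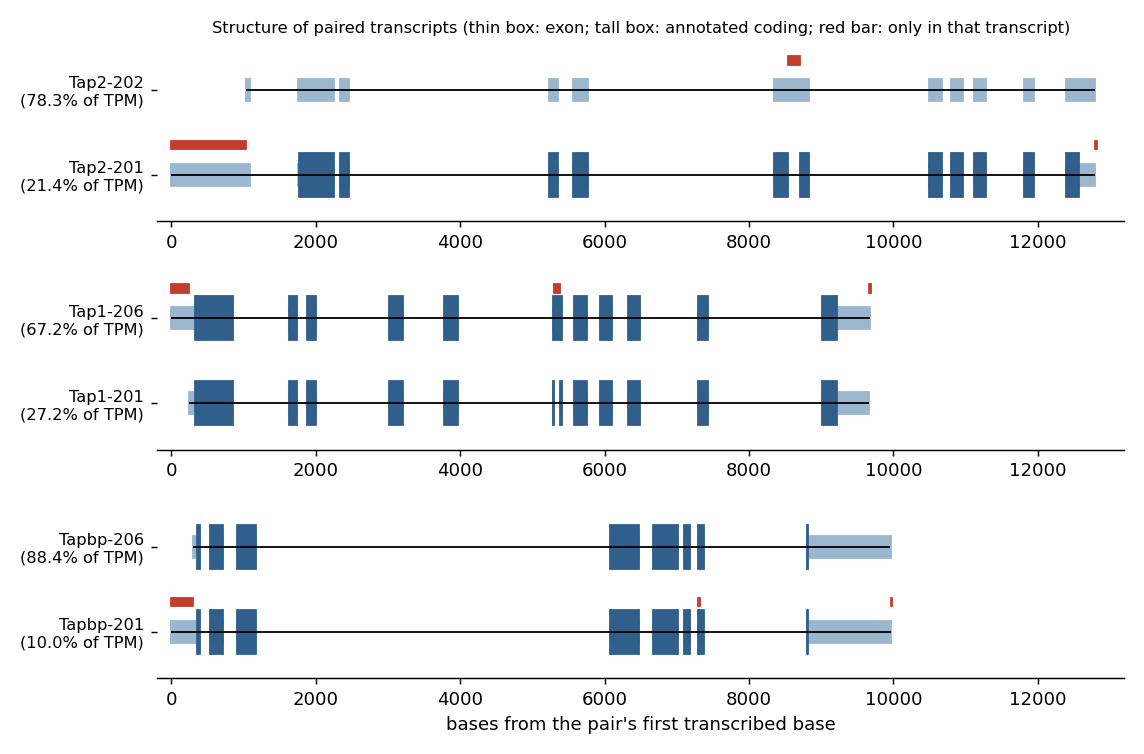
Exons of the leading transcript (upper) and the next transcript (lower) of Tap2, Tap1 and Tapbp, drawn to scale in bases from the pair's first transcribed base, with annotated coding parts as tall boxes and segments found in only 1 of the pair under red bars. The red bar inside Tap2-202 is the retained intron of 162 bases, and the one inside Tap1-206 the 84 bases that Tap1-201 lacks (bars of under 25 bases are drawn at 25).

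Tapasin, the product of Tapbp, bridges TAP and the class I molecule and favours the binding of tight-fitting peptides. Tapbp (ENSMUSG00000024308.15, chromosome 17, 33915899 to 33929292, plus strand) had 337, 275 and 348 TPM in replicates 1, 2 and 3, the highest of the 8 genes in each library. Its relative Tapbpl encodes TAPBPR, which edits peptides on class I molecules outside the loading complex. Tapbpl (ENSMUSG00000038213.7, chromosome 6, 125223933 to 125231860, minus strand) had 19.3, 14.2 and 14.2 TPM. Unlike the transporter genes, Tapbpl was high in replicate 1 alone. Tapbp exceeded Tapbpl by 4.25 ± 0.24 on the log2(TPM + 1) scale, or 19.1-fold, with TPM ratios of 17.5, 19.3 and 24.6 (exact sign-flip p = 0.25). Tapbpl has a single annotated transcript, and it lies wholly within Vamp1, a gene on the opposite strand with 1.60 ± 0.151 TPM. The annotated span of Tapbp overlaps by 3422 bases that of Zbtb22 on the same strand, which had 7.45 ± 0.519 TPM. Zbtb22 ends at 33919325, before the transcripts Tapbp-201 and Tapbp-206 described below begin, at 33919332 and 33919637.

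For Tapbp, Tapbp-206 took 88.4% ± 0.754 of TPM and Tapbp-201 10.03% ± 0.807, with 85.7% ± 0.759 and 12.3% ± 0.509 in the second table. Within the coding sequence they differ by 3 bases at the start of exon 7 (chromosome 17, 33926627 to 33926629), which Tapbp-206 leaves out. The junctions are printed side by side, with the extra bases in capitals and 30 bases on each side.
Tapbp-206: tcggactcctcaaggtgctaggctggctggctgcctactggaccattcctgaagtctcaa
Tapbp-201: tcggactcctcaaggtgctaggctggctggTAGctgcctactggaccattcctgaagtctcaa
The coding sequence thus has 1395 bases in Tapbp-206 and 1398 in Tapbp-201, in the same frame. Their first exons differ too, since Tapbp-201 starts 305 bases earlier.

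Erap1 encodes the ER aminopeptidase that trims the amino end of peptides before they are loaded, called ERAAP in the mouse. Erap1 (ENSMUSG00000021583.7, chromosome 13, 74639568 to 74693201, plus strand) had 19.7, 17.1 and 19.8 TPM in replicates 1, 2 and 3. The values lay within a narrow band, with a coefficient of variation of 8.24%. Erap1-201 held 92.4% ± 3.46 of TPM in the first transcript table and 68.3% ± 6.79 in the second. Erap1-203, a protein-coding model of only 354 bases, held 5.83% ± 3.25 and 14.5% ± 1.72. By expected counts the long Erap1-201 took 99.1%, since TPM divides by length and so raises the share of short transcripts. The end of Erap1 overlaps the opposite gene Cast, at 20.0 ± 0.915 TPM, by 834 bases.

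Calr and Pdia3 serve the folding of many ER glycoproteins besides class I. Calreticulin is a calcium-binding chaperone that holds sugar-bearing class I chains in the complex, and Pdia3 encodes ERp57, which pairs with tapasin. Calr (ENSMUSG00000003814.8, chromosome 8, 84841850 to 84846934, minus strand) had 203, 198 and 236 TPM in replicates 1, 2 and 3. Pdia3 (ENSMUSG00000027248.13, chromosome 2, 121413775 to 121438687, plus strand) had 94.9, 81.4 and 92.3 TPM. In the gene table Calr was highest in replicate 3, and Pdia3 was lowest in replicate 2. The second transcript table turned this round for Calr, with 104.6, 113.8 and 86.3 TPM, and Pdia3 too was lowest in replicate 3 there. Calr exceeded Pdia3 by 1.23 ± 0.13 on the log2(TPM + 1) scale, or 2.35-fold, with ratios of 2.14, 2.43 and 2.56 (exact sign-flip p = 0.25). Virtually all Pdia3 RNA was assigned to Pdia3-201, with 99.9% in replicate 3 and 100% in the others. Calr-201, the single protein-coding Calr transcript, held 90.3%, 81.7% and 78.3% of TPM. The rest lay almost wholly in Calr-204, a retained-intron model of 943 bases that keeps an intron of 87 bases and lacks the first exons, at 8.98%, 17.99% and 21.3%. In the second transcript table Calr-204 held 27.0% ± 6.47 and Calr-201 72.8% ± 6.54. By expected counts Calr-204 took 6.69%.

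Nlrc5 encodes a NOD-like receptor protein that enters the nucleus and switches on class I genes together with the RFX factors. Nlrc5 (ENSMUSG00000074151.13, chromosome 8, 94434356 to 94527272, plus strand) had 34.3, 21.98 and 31.7 TPM in replicates 1, 2 and 3. In the gene table replicate 2 lay well below the other libraries, and the coefficient of variation, 22.1%, was the largest of the 8. The second transcript table gave 13.9, 9.08 and 8.71 TPM, with replicate 3 lowest and close to replicate 2. Ciita, its counterpart that switches on class II genes, had 1.45, 1.36 and 1.22 TPM. Nlrc5 exceeded Ciita in every library, by 3.67 ± 0.34 on the log2(TPM + 1) scale, or 12.7-fold (exact sign-flip p = 0.25). The TPM ratios were 23.6, 16.2 and 25.96. The difference was 2.78 ± 0.28 in the second quantification and 4.33 ± 0.36 with a pseudocount of 0.1, called under both.

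The Nlrc5 signal was spread over several transcripts. The long protein-coding Nlrc5-207, of 7578 bases in 53 exons, took 40.2% ± 0.502 of TPM but 82.1% of expected counts. Nlrc5-209, a processed transcript of 346 bases, took 18.9% ± 2.55 of TPM and 0.677% of expected counts. Nlrc5-203, annotated as a retained intron, starts at the first base of an intron of 353 bases and runs through the last exons. It held 26.8% ± 0.720 of TPM in the first transcript table against 3.79% ± 0.796 in the second. The model has no exon before that intron, so its share does not measure how often the intron was kept. Protein-coding transcripts together gave 14.1, 9.49 and 14.3 TPM. The lincRNA gene 9330175E14Rik overlaps Nlrc5 by 748 bases on the opposite strand and had 3.08 ± 0.538 TPM.

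**Figure D3:**
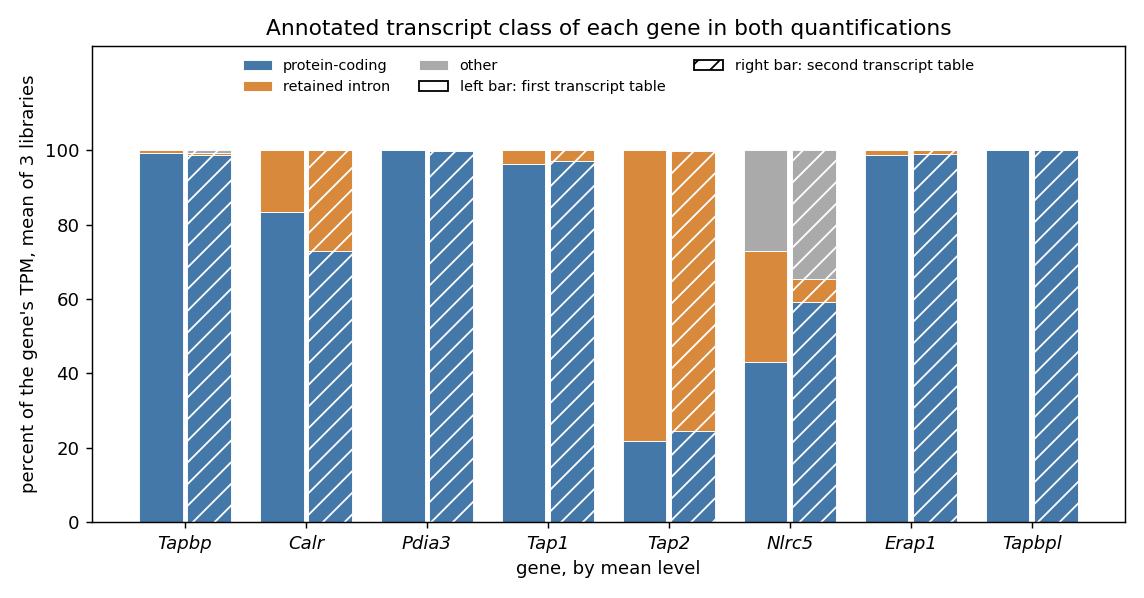
Percent of each gene's TPM held by transcripts annotated as protein-coding, as retained introns or as other classes, as the mean of 3 libraries, in the first transcript table (left bars) and the second (right, hatched bars). Retained-intron models hold 78.3% of Tap2 TPM in the first table and 75.1% in the second, while for Nlrc5 they hold 29.7% and 6.15%.

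The order of mean levels was Tapbp, Calr, Pdia3, Tap1, Tap2, Nlrc5, Erap1 and Tapbpl. Of the 7 neighbouring pairs, 4 differed with the same sign in every library and by more than 3 SD. Tapbp exceeded Calr by 0.59 ± 0.13 on the log2(TPM + 1) scale, and Tap2 exceeded Nlrc5 by 0.25 ± 0.06; the other 2 were Calr over Pdia3 and Tap1 over Tap2, given above. Pdia3 and Tap1 did not differ beyond their spread, at 0.02 ± 0.09, with 2 of 3 libraries of one sign. Nlrc5 over Erap1, at 0.59 ± 0.22, and Erap1 over Tapbpl, at 0.24 ± 0.21, had the same sign in all 3 libraries but missed the rule of 3 SD. In the second quantification Tapbp over Calr, at 0.42 ± 0.15, was no longer beyond 3 SD, and Nlrc5 minus Erap1 was -0.07 ± 0.33. Without replicate 2, Nlrc5 over Erap1 was beyond 3 SD, at 0.71 ± 0.08 over 2 libraries. These levels count all transcripts of a gene. With protein-coding transcripts alone, Tap2 lay below Nlrc5 in every library, at 9.81, 5.52 and 7.60 TPM against 14.1, 9.49 and 14.3 TPM. Tap2 then had the lowest mean of the 8 genes, 7.64 TPM, below Tapbpl at 15.9 TPM. This place of Tap2 rests on how its TPM was split between the retained-intron transcript and the protein-coding transcripts. The retained-intron transcript also has a shorter first exon than the main protein-coding transcript, as described above. Which of these segments set the split was not tested, so the protein-coding level of Tap2 may be understated.

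All 8 genes were lower in replicate 2 than in the mean of the other 2 libraries, on counts scaled by the trimmed mean of M-values (TMM). Of the 13410 genes that had at least 10 counts on average, 49.2% were lower there. In replicates 1 and 3, 1 of the 8 genes was lower, against 52.6% and 49.6% of all genes. The exceptions were Calr in replicate 1, by a log2 ratio of -0.04, and Tapbpl in replicate 3, by -0.27. The median log2 ratio of replicate 2 to the others was -0.22 over the 8 genes and 0.00 over all genes. Nlrc5 at -0.50, Tap2 at -0.47 and Tap1 at -0.36 lay lowest in replicate 2, and Calr at -0.10 lay nearest to 0. Other genes moved with them. All 10 interferon-stimulated genes examined were lower in replicate 2, with a median of -0.43, and so were 6 of 7 macrophage markers, with a median of -0.25. Whether these have a part in the shift of the 8 genes was not tested.

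**Figure D4:**
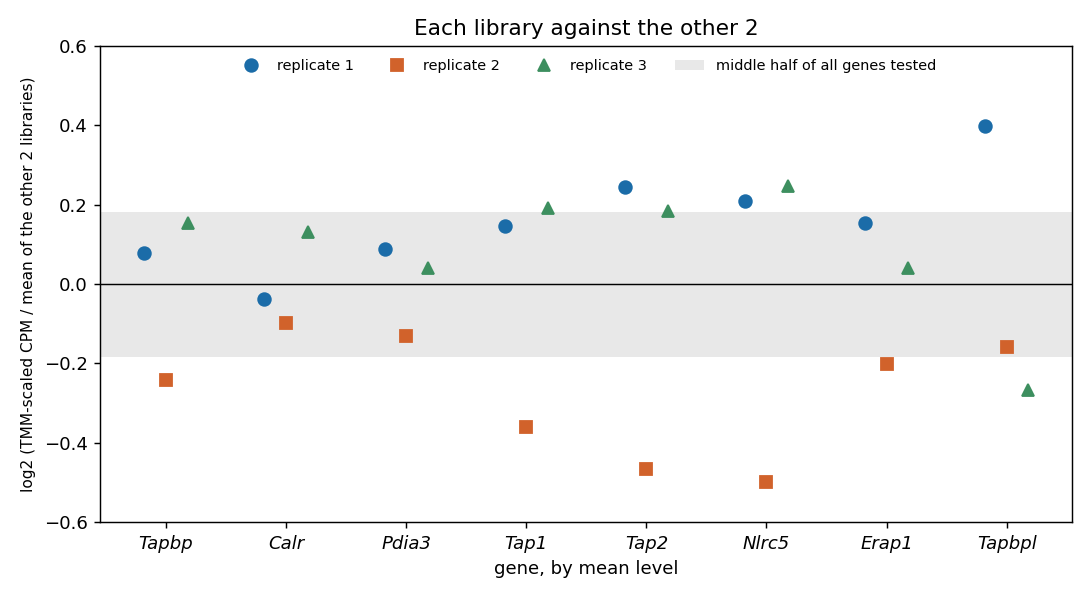
log2 ratio of TMM-scaled CPM (counts scaled to library size) of each library to the mean of the other 2, for replicate 1 (circles), replicate 2 (squares) and replicate 3 (triangles), with the range of the quartiles of all genes in grey. All 8 squares lie below 0, from -0.10 for Calr to -0.50 for Nlrc5, whereas replicate 1 and replicate 3 each have 1 gene below 0.

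The counts of all 8 genes differed between libraries by more than counting noise, by a chi-square test of homogeneity with Benjamini-Hochberg adjustment over all genes tested. So did 64.8% of the 13410 genes, and the test compares these libraries, not conditions. Counts ran from 1961 for Tapbpl in replicate 1 to 69226 for Tapbp in replicate 3, so small differences pass. Without replicate 2, 4 of the 8 passed, against 44.3% of 13384 genes. Tap1, Tap2, Pdia3 and Nlrc5 then had adjusted p of 0.153, 0.207, 0.108 and 0.490, so their counts in replicates 1 and 3 were not distinguishable from counting noise. Without replicate 1, 7 of the 8 passed, against 51.5% of 13753 genes. Tapbpl did not, with an adjusted p of 0.122. The highest TMM-scaled CPM of a gene over its lowest ran from 1.11 for Pdia3 and Calr to 1.42 for Nlrc5. Its median was 1.25 over the 8 genes and 1.24 over all genes tested.

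A biological coefficient of variation, the spread beyond counting noise estimated by edgeR, had a median of 13.3% over the 8 genes and 13.4% over all. It lay above the trend for the expression level in 4 of the 8 genes, Nlrc5, Tap2, Tapbpl and Tap1, against 25.8% of 12738 genes. Tap1 did so by a dispersion only 1.01 times the trend, and Nlrc5, the highest, by 1.36 times. Without replicate 2, Tapbpl alone lay above the trend, against 24.7% of 12720 genes. The genes whose libraries most resembled Nlrc5 in log2 TMM-scaled CPM around their own means were Chrnb2, Kansl3 and Atp8a1, at distances of 0.01, 0.03 and 0.03. With 3 libraries such likeness is common, and 93 of 9823 protein-coding genes lay within 0.1. Among the other genes of the 8, Tap2 was nearest to Nlrc5, at 0.05, and Tapbpl farthest, at 0.44.

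The class I light chain and the classical heavy chain genes had higher levels than any of the 8 loading genes. All 5 class I genes examined were detected, with a median of 1526 TPM over their means. The highest were B2m, the invariant light chain, at 3446 ± 450.4 TPM and the heavy chain gene H2-K1 at 2004 ± 274 TPM. Among the nonclassical heavy chains, H2-T23 had 290.4 ± 40.4 TPM and H2-M3 had 33.3 ± 2.83 TPM. All 5 differed between libraries beyond counting noise, against 64.8% of all genes tested. In replicate 2, 4 of 5 were lower, against 49.2% of all. Near-identical class I heavy chain genes share reads, so the split between them rests on the quantifier.

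Peptide supply was represented by 5 genes of the immunoproteasome and its activator PA28, all detected, with a median of 181 TPM. The activator subunit Psme2 was highest at 257 ± 4.98 TPM and Psme1 had 169 ± 10.9 TPM. All 5 passed the counting-noise test, against 64.8% of all genes tested. All 5 were lower in replicate 2, by a median log2 ratio of -0.10, against 49.2% of all. The 7 peptidases of the list, which trim or destroy peptides outside the loading complex, had a median of 10.7 TPM. Lnpep, the endosomal aminopeptidase IRAP, had 23.8 ± 4.71 TPM and Nrdc, listed as Nrd1 in the tables, 19.8 ± 0.612 TPM. The lowest were Blmh at 7.05 ± 0.168 TPM and Thop1, which destroys peptides in the cytosol, at 1.97 ± 0.383 TPM. Of the 7, 5 passed the counting-noise test, against the same 64.8%.

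Of the ER chaperones, all 10 were detected, with a median of 45.7 TPM. Hspa5, the chaperone BiP, led with 170.4 ± 22.5 TPM and Canx, calnexin, followed with 108 ± 13.2 TPM. Sdf2l1 had 16.8 ± 1.18 TPM, and Uggt1, which returns misfolded glycoproteins to calreticulin, was lowest at 6.75 ± 0.786 TPM. Calr, at 212 ± 20.6 TPM, lay above all 10 of them. Of the 7 genes of ER export and the Sec61 channel, all detected, Bcap31 was highest at 47.1 ± 4.77 TPM and Sec61b next at 40.6 ± 7.47 TPM. Sec24a had 5.0 ± 0.544 TPM and Sec61g 4.91 ± 1.29 TPM. All 10 and all 7 passed the counting-noise test, against 64.8% of all genes tested. In replicate 2, 8 of the 10 chaperone genes and 3 of the 7 export genes were lower, against 49.2% of all genes tested.

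**Figure D5:**
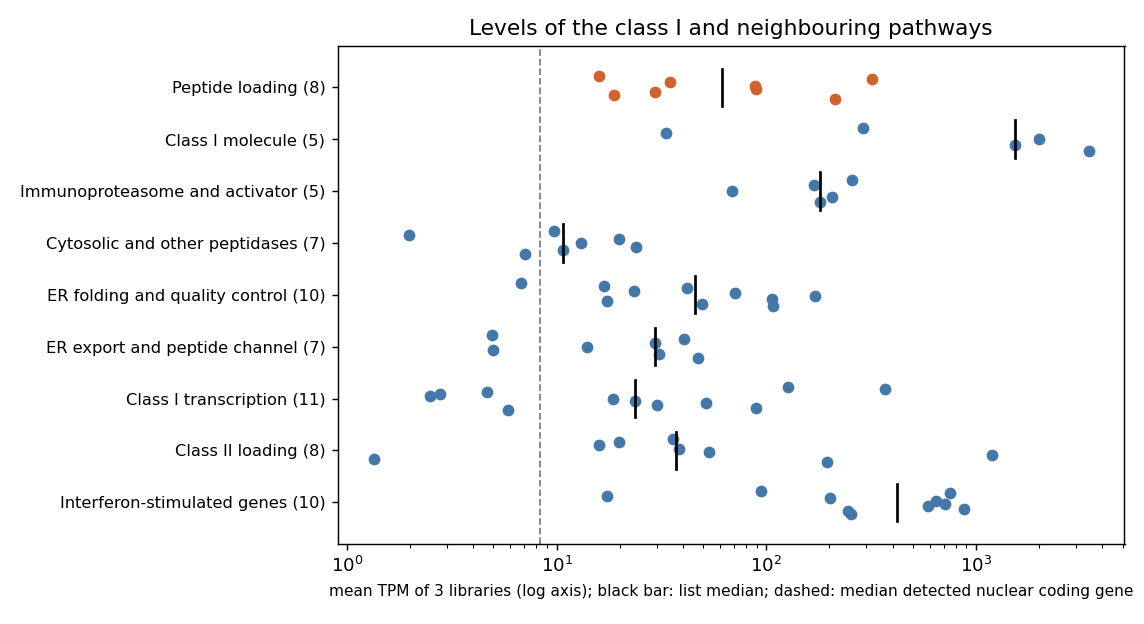
Mean TPM over 3 libraries (log axis) of the 8 peptide loading genes (top row) and of the genes of 8 related lists, 1 point a gene, with black bars at list medians. The loading genes have a median of 61.7 TPM, below the class I molecules at 1526 TPM and the immunoproteasome at 181 TPM and above the peptidases at 10.7 TPM.

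Among 11 transcription factors that act on class I genes, all detected, Stat2, which carries interferon signals to the nucleus, had 127 ± 27.7 TPM. The RFX factors with which Nlrc5 acts were low, Rfxank at 2.77 ± 0.231 TPM and Rfx5 at 2.50 ± 0.397 TPM. Of the 11, 10 passed the counting-noise test and 7 were lower in replicate 2, against 64.8% and 49.2% of all genes tested. The 10 interferon-stimulated genes had a median of 420.2 TPM. Ifit2 was highest at 875 ± 215 TPM, followed by Rsad2 at 747 ± 225 TPM, while Usp18 had 93.9 ± 22.4 TPM and Oas2 17.3 ± 4.02 TPM. All 10 passed the counting-noise test, against the same 64.8%, and 8 of 10 had a dispersion above the trend, against 25.8% of 12738 genes.

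Promoters of 5 of the 8 genes were found in the RefSeq table of promoter windows (GRCm38.p6), each with 250 bases before and 50 after the start: Tap1, Tapbp, Erap1, Calr and Pdia3. The RefSeq start is not always that of the leading transcript. The Tapbp window ends at 33919527, before Tapbp-206 begins at 33919637, and the Pdia3 start lies inside the first exon of Pdia3-201. They were searched on both strands for motifs of factors known to act on this pathway. The core of the interferon-stimulated response element, GAAANNGAAA, occurred in 1 of the 5 and in 3.44% of all 32851 windows. The NF-kB core GGGNNNNNCC occurred in 3 of the 5 and in 50.8% of all. The ER stress response element, a CCAAT box 9 bases from CCACG, occurred in 1 of the 5 and in 0.119% of all, and it contains a CCAAT box, found in 4 of the 5 and in 37.4% of all. The windows that hold the rarest motifs are printed in part, with the match in capitals, both on the reverse strand, at chr13:74639839-74639868 (plus) and chr8:84847055-84847143 (minus).
Erap1 promoter: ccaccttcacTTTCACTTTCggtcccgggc
Calr promoter: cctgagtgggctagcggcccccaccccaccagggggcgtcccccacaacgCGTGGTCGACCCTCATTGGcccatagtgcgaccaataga
The Erap1 match spans the RefSeq start site, which lies inside the first exon of Erap1-201, from base -4 to base 6, and the Calr match lies from base -162 to base -144. A match is only a description of the letters, and no binding was measured.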

How the data were processed

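The analysis started from the authors' deposited tables of the 3 libraries. Per the file headers, the gene table and the first transcript table hold an expected count and TPM per gene or transcript, in the column layout of RSEM. In the second deposited transcript table the layout is that of kallisto, with an estimated count and a TPM value per transcript. Per the text deposited with the libraries, the build was mm10 and the annotation GENCODE M21. Aligner, quantifier and strand setting: not given in the sources used here. TPM divides by length over all rows, so the mix of short RNAs shifts every level. Rows without an annotated gene (0.774% of replicate 1, 0.207% of replicate 2 and 0.167% of replicate 3 by count) entered neither library sizes nor tests.

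Replicate numbers are those of the labels. The chi-square p-values set differences between these libraries against counting error, and the sign-flip p-values rest on 3 within-library differences. Neither reaches beyond these samples. Replicate 1 is the shallowest and so the least precise, and a limit taken from a count covers only counting error. Rounded expected counts were given TMM library sizes by edgeR 4.0.16 (R 4.3.3), and DESeq2 1.42.0 gave alternative size factors. The chi-square test of homogeneity used genes that averaged 10 counts or more and an adjusted p threshold of 0.05, and dispersions came from an intercept-only fit after filterByExpr. Level differences were taken within each library on log2(TPM + 1), which understates those of low genes, and called with 1 sign in 3 libraries and a mean over 3 SD. Python 3.11.15 (scipy 1.17.1) ran the rest. The chi-square test and the dispersion estimate were tested on simulated data.

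The members and lists were chosen with earlier results of these data known. All 8 genes are named, and of each list the 2 detected genes with the highest and the 2 with the lowest mean TPM. Not all genes that met this rule are reported here. For the gene with the highest dispersion over trend, the 3 protein-coding genes of a mean count of at least 100 nearest to it are named. Exons and transcript sequences were read from GENCODE M21 and promoters from RefSeq (GRCm38.p6). Overlapping genes, Psmb8 and the transcripts described were named after their values were seen. Alternatives were DESeq2 size factors, total counts, no filter, a pseudocount of 0.1, the second transcript table, TPM over nuclear protein-coding genes, shares of expected counts and leaving out each replicate.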

Additional observations from a re-analysis of the deposited data

How the results depend on the processing

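Of the alternative values of the results that answer a comparison, 51 stayed on their side of the threshold or within 1.5 times, and 3 moved. Loading genes beyond counting noise numbered 8, with a range of 4 to 8 when a replicate was left out, the 4 without replicate 2. Of all genes tested, 64.8% passed in the main run and 51.5%, 44.3% and 42.5% without replicates 1, 2 and 3. Loading genes above the dispersion trend numbered 4, with a range of 1 to 4, the 1 without replicate 2. For all genes the share was 25.8% in the main run and 22.6%, 24.7% and 25.1% without replicates 1, 2 and 3. Loading genes lower in replicate 3 numbered 3 in the second transcript table and 1 in the main counts. The differences Tap1 over Tap2, Tapbp over Tapbpl, Calr over Pdia3 and Nlrc5 over Ciita kept their sign under all alternatives run. They also stayed beyond 3 SD, although an SD with a replicate left out rests on 2 libraries. Of the 4 neighbouring pairs called in the order of levels, Tapbp over Calr lost its call in the second transcript table. Levels of all 8 genes were 1.72 to 2.77 times lower in the second transcript table, at 6.81 TPM for Tapbpl and 136 TPM for Tapbp, and higher in TPM over nuclear protein-coding genes, at 54.5 and 1099 TPM. Leading shares moved by more than 1 SD for 7 genes in the second table and for 5 by expected counts. Causes were not tested. No paired analysis was possible because there is only 1 group.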

Other observations

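Genes of the class II loading pathway, which shows peptides taken up from outside to CD4+ T cells, were mostly not lower in replicate 2. All 8 class II genes examined were detected, with a median of 37.1 TPM. The lysosomal protease gene Ctss was highest at 1193 ± 225 TPM, followed by Cd74, the invariant chain, at 195 ± 12.9 TPM, whereas H2-DMa, a chain of the class II peptide editor, had 16.0 ± 1.67 TPM and Ciita 1.34 ± 0.116 TPM. In replicate 2, 2 of the 8 were lower than in the mean of the other 2 libraries, with a median log2 ratio of 0.17. In replicate 3, 7 of the 8 were lower, with a median of -0.19. Of all genes tested, 49.2% were lower in replicate 2 and 49.6% in replicate 3. Ctss was 1 of the 2 that were lower in replicate 2, at a log2 ratio of -0.38, and H2-DMa the other, at -0.11. No test of the difference between the class I and class II genes was run.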
